A study of Mus musculus with 15 samples.

Results

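The cyclins, kinases and kinase inhibitors of the G1 phase were followed in cultured mouse macrophages across 5 conditions. The 10 genes were the D-type cyclins Ccnd1, Ccnd2 and Ccnd3, the E-type cyclins Ccne1 and Ccne2, the cyclin-dependent kinases Cdk2 and Cdk6, and the kinase inhibitors Cdkn1b, Cdkn2c and Cdkn2d. They were chosen by name and not by a threshold on a measured value, though with earlier results of these data known, and each gene was read from 1 probe set annotated to it alone, the one whose average across the 15 arrays was highest. They make up 10 of the 18193 genes that had such a probe set, and all 10 were among the 13703 genes that passed the filter on low values.

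All cells were bone marrow derived macrophages cultured for 7 days with M-CSF, the growth factor on which macrophages depend. The M0 group had no further treatment, the M1 group was polarized with LPS from E. coli and interferon-gamma, and the M2 group with IL-4 and IL-13. The M2+nutlin group was polarized like M2 and also received nutlin-3a, which frees p53 from its inhibitor MDM2, and the M2+10058F4 group received the MYC inhibitor 10058F4, which keeps MYC from pairing with MAX. Each group had 3 arrays, which the labels call biological replicates. The sources used here do not give doses, times, a vehicle, or the strain, sex and age of the mice. They also do not say whether replicates are separate animals or cultures. A p-value here rests on the spread within groups, pooled over all 15 arrays, and replicates may differ only technically.

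D cyclins bind the kinases CDK4 and CDK6, and E cyclins bind CDK2. These complexes phosphorylate the retinoblastoma protein, which then releases E2F factors, and the cell passes from G1 into S phase. CDKN1B belongs to the CIP/KIP inhibitors, which bind cyclin-kinase complexes, and CDKN2C and CDKN2D belong to the INK4 inhibitors, which bind CDK4 and CDK6. Macrophages keep dividing in M-CSF, and activation by LPS or interferon-gamma is known to stop that division.

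Values are log2 expression levels, so a difference of 1 is a 2-fold change, and levels of different probe sets cannot be set against each other. The 3 arrays of a group limit the precision of each value. All 9 macrophage markers on the list used, among them Csf1r at 13.01 to 13.85, lay above the filter level in every group. The M1 marker Cxcl9 averaged 13.37 in M1 cells and 4.31 to 4.74 elsewhere. The M2 marker Arg1 averaged 10.34 to 10.52 in the 3 M2 groups, 6.47 in M1 and 3.56 in M0. The other M2 markers on the list were less even across the M2 groups. Retnla averaged 9.66 for M2 alone, 7.18 under 10058F4 and 8.17 under nutlin-3a, against 4.45 for M0 and 4.9 for M1. Chil3 went the other way, at 9.41 for M2 alone, 10.81 under 10058F4 and 10.36 under nutlin-3a. It averaged 4.97 for M0 and 3.46 for M1. Markers of other cell types were mixed. Of the 3 T cell markers, Cd3e (5.03 to 5.49) and Cd3d (4.96 to 5.4) lay above the filter level in every group and Cd3g under it, and of the B cell markers Cd79a lay above it in 4 groups and Ms4a1 in none. The mast cell marker Mcpt4 (4.68 to 4.95), the neutrophil marker Elane (4.79 to 5.32), the erythroid marker Klf1 (5.07 to 5.4) and the stromal genes Col1a2 (6.58 to 7.58) and Pdgfra (4.56 to 4.98) lay above it in every group. Col1a1 lay above it in 4 groups and Mpo and the progenitor marker Cd34 in 1, while Cpa3 and Kit lay under it throughout. Of 3 dendritic cell markers, Xcr1 averaged 6.05 in M1 and 3.45 to 3.82 elsewhere, while Flt3 stayed at 5.52 to 5.7 and Zbtb46 at 4.87 to 5.12, and the part of these markers in the results was not tested. As a reading of RNA quality, the beta-actin controls gave a log2 level 0.178 ± 0.0444 (SD, n = 3) higher at the 3' than at the 5' end in M1 cells. The same difference was 0.351 ± 0.0543 in M0, 0.382 ± 0.0302 in M2, 0.489 ± 0.025 for 10058F4 and 0.453 ± 0.0346 for nutlin-3a. The Gapdh controls gave -0.162 ± 0.0347 in M1 and -0.283 to -0.272 in the 4 other groups, so M1 lay lowest by beta-actin and highest by Gapdh. The part of RNA quality in the results was not tested. M0 replicate 1 and M1 replicate 2 stood apart from their groups on several of the G1 genes, and results that rest on them are given with and without them. In bulk RNA, a change in the share of cells that express a gene and a change in RNA per cell cannot be told apart.

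RefSeq start sites of GRCm38.p6 were given for 7 of the 10 genes, with 9 promoters between them, and those of Ccnd1, Ccnd2 and Ccne2 were not used here. The 250 bases before each start were searched on both strands for the E-box CACGTG, the core of the sites that MYC and MAX bind, for the E2F-type motif TTTNNCGC and for the STAT-type motif TTCNNNGAA. The matches lay in Cdk6 and Cdk2, and none of the 9 windows held the STAT-type motif. Among 32841 promoters of this length, 6.02% held the E-box, 4.28% the E2F-type and 7.02% the STAT-type motif. The promoters below are shown because the results below turn on these genes: Cdk6 and Cdkn1b rose with the MYC inhibitor, Cdk2 was lower in M1 cells, and the probe sets of Ccnd3, which has a pair of listed starts, went different ways. Sequences run 5′ to 3′ towards the start, and capitals mark the motif matches.
Cdk6, chr5:3343643-3343892, plus strand: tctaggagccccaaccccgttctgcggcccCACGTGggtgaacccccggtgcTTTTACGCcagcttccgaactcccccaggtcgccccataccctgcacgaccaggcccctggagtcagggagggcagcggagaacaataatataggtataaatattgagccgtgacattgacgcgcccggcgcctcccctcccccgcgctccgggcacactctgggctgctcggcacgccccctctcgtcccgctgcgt
Cdk2, chr10:128705052-128705301, minus strand: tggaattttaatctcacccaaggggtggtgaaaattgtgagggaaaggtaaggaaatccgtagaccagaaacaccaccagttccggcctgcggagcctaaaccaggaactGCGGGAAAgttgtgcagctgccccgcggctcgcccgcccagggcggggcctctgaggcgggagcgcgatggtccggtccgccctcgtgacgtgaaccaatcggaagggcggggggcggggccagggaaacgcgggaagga
Cdkn1b, chr6:134920151-134920400, plus strand: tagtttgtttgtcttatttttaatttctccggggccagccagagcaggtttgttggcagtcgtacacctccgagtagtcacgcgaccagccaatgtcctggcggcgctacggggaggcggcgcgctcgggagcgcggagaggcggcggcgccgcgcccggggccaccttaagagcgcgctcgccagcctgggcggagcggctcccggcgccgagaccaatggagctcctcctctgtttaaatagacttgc
Ccnd3 upstream start, chr17:47504801-47505050, plus strand: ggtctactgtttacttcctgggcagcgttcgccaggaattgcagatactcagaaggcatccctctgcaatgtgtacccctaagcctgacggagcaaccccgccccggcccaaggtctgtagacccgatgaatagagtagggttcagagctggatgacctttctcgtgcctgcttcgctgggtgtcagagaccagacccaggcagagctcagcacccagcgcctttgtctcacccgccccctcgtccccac
Ccnd3 downstream start, chr17:47593217-47593466, plus strand: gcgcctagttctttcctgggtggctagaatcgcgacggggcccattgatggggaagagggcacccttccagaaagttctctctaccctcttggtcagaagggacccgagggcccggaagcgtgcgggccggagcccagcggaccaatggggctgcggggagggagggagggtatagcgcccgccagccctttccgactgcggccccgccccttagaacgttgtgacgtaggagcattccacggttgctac

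In the Cdk6 window the E-box began 220 bases and the E2F-type match 198 bases before the start. The Cdk2 window held an E2F-type match on the opposite strand, beginning 140 bases before the start. The windows of Cdkn1b, Ccnd3, Ccne1, Cdkn2c and Cdkn2d held none of these letters, which says only that these letters are not in these windows.

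Against M0 cells, the D cyclins and Cdkn2d stood higher in M1 cells and Cdkn2c lower. In that comparison 5 of the 10 genes rose, 3 fell and 2 missed the threshold of an adjusted p under 0.05. All 3 D cyclins, Ccne1 and Cdkn2d rose, and Ccne2, Cdk2 and Cdkn2c fell. Over all tested genes, 33.6% were called higher and 39.1% lower in this comparison, or 72.7% either way, so 8 calls among 10 genes are near the share of all genes. The median log2 difference of the 10 genes was 0.52, and that of all tested genes was -0.0048. Against M2 cells, 6 of the 10 were higher in M1 and 2 lower, beside 28.1% of all tested genes higher and 36.5% lower. The medians of that comparison were 0.63 for the G1 genes and -0.005 for all genes. These comparisons share the M1 arrays. The shares of higher genes depended on scaling: 46.2% of all calls were higher in M1 than in M0 as deposited and 68.5% with each array centred on the median of the tested genes, and 43.5% and 65.4% against M2.

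Fewer of the G1 genes were called in M2 against M0 than in the comparisons with M1, as held for all tested genes. Against M0, limma called none of the 10 higher, also at an unadjusted p under 0.05 (0 genes) and with trended, robust eBayes (0 genes), and 2 lower, Cdk2 and Cdkn1b. Over all genes 12.7% were called higher and 18.4% lower, or 31% either way, so 2 lower calls among 10 genes are near that share. Without M0 replicate 1, 4 of the G1 genes were called. With all arrays, the unadjusted threshold gave 5 lower genes. The medians were -0.26 for the G1 genes and -0.0037 for all genes.

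In M2 cells Ccnd1 was lower with each agent. With nutlin-3a, limma called 1 gene lower, Ccnd1, and 0 higher (2 higher at an unadjusted p under 0.05 and 0 with trended, robust eBayes), where 9.56% of all genes were called higher and 5.85% lower. The unadjusted threshold gave 4 lower genes with nutlin-3a. The medians with nutlin-3a were -0.18 for the G1 genes and 0.0085 for all genes. With 10058F4, Ccnd3, Cdk6 and Cdkn1b rose and Ccnd1 fell, where 10.6% of all genes were called higher and 10.2% lower. Here the medians were 0.13 for the G1 genes and -0.00039 for all genes. Both comparisons use the same M2 arrays. Between the agents, limma called Cdk6 and Cdkn1b lower with nutlin-3a than with 10058F4 and 0 genes higher (0 at an unadjusted p under 0.05 and 0 with trended, robust eBayes), where 4.24% of all genes were called higher and 2.72% lower. Both calls were lost when any of the 6 arrays was left out. Between the agents the unadjusted threshold gave 6 lower genes. The medians between the agents were -0.33 and 0.011. The share of higher genes among all calls again moved with scaling. It was 40.8% in M2 against M0, 51.5% after repeated quantile normalization and 61% with arrays centred on the tested genes. With nutlin-3a it was 62%, 51.6% and 41.2%, and between the agents 60.9%, 50.8% and 44.4%. Centring on the tested genes moved the median of all genes by more than 0.1 in the comparisons with M1 alone, to 0.32 against M0 and 0.24 against M2.

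**Figure D1:**
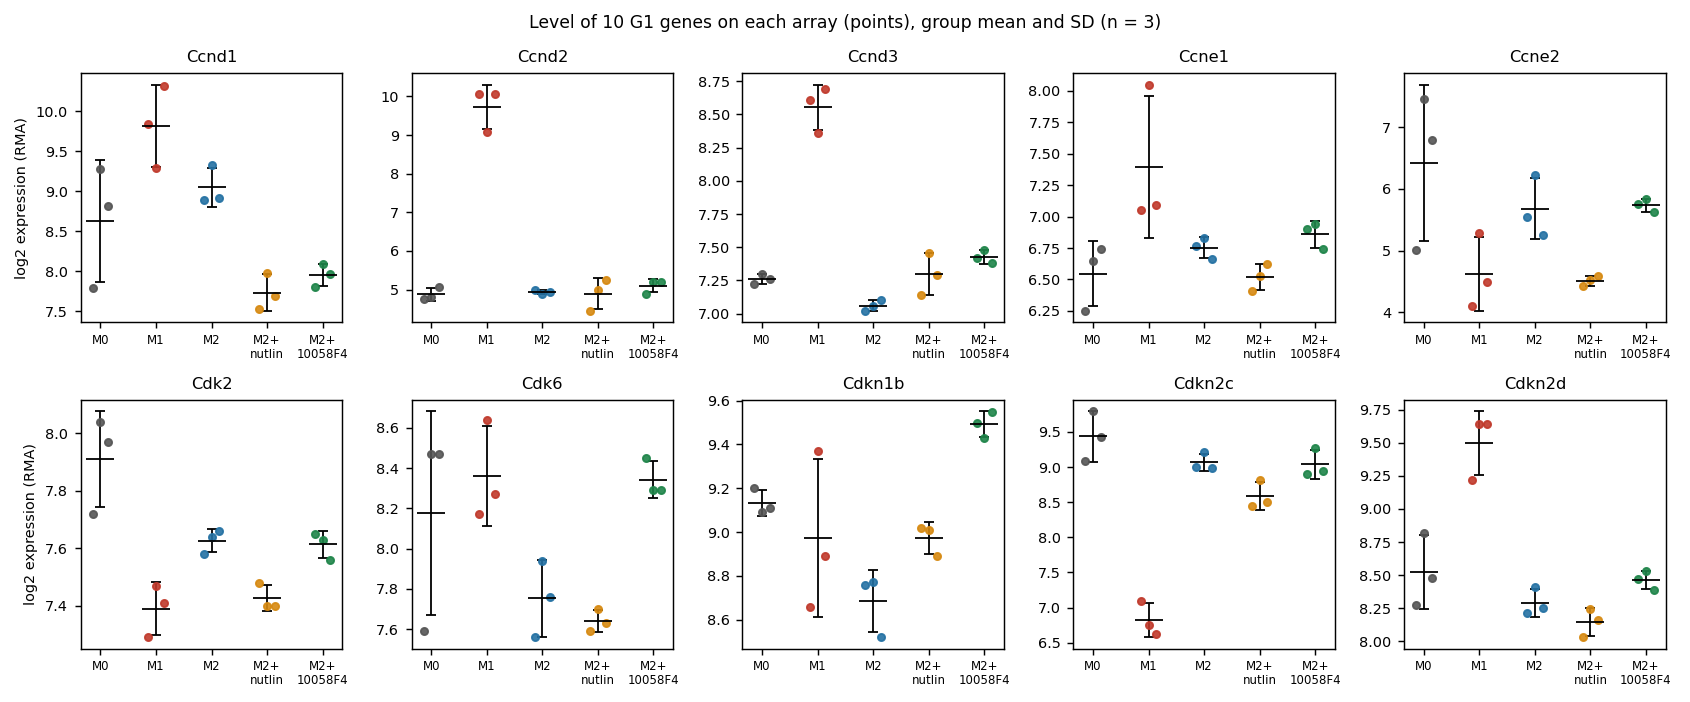
Log2 expression level of each G1 gene (y axes differ) in the 5 groups (x axis), with each array as a point and bars for the group mean and SD (n = 3). Ccnd2, Ccnd3 and Cdkn2d stand highest in M1 cells with no overlap with another group, Cdkn2c stands lowest there, and Cdkn1b stands highest with 10058F4.

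Ccnd1 encodes cyclin D1, the D cyclin classically induced by growth factors. Its levels were 7.79, 9.28 and 8.81 in the M0 arrays and 9.84, 9.29 and 10.32 in the M1 arrays. The M2 arrays read 8.89, 9.33 and 8.92. The nutlin-3a arrays read 7.53, 7.98 and 7.69, and the 10058F4 arrays 7.81, 8.09 and 7.97. The M1 mean lay highest, though M1 replicate 2 (9.29) lay under M2 replicate 2 (9.33). Both agents gave levels below every M2 array. The order of group means was M1, M2, M0, M2+10058F4 and M2+nutlin, and each neighbouring pair in it overlapped.

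Ccnd1 rose in M1 against M0 by 1.19 (SE 0.31, adjusted p = 0.0034). M0 replicate 1 held the lowest M0 value, and without it the difference was 0.77 (adjusted p = 0.014). Against M2 the difference was 0.77 (SE 0.31, adjusted p = 0.042), but the arrays overlapped and the call was lost without M1 replicate 1 (adjusted p = 0.084) or 3 (0.18), without M2 replicate 1 (0.11) or 3 (0.11) and with trended, robust eBayes (0.074). Ccnd1 was 2.48-fold lower with nutlin-3a than in M2 cells (log2 difference -1.31, SE 0.31, adjusted p = 0.012) and kept that call in every alternative tried. With 10058F4 it was 2.13-fold lower (-1.09, SE 0.31, adjusted p = 0.023), and the adjusted p was 0.085 without M2 replicate 2, 0.08 without M2+10058F4 replicate 1 and 0.058 without M2+10058F4 replicate 3. The difference between the agents was -0.22 with a 95% interval from -0.89 to 0.45 (adjusted p = 0.78), so a difference of either sign within that range could not be seen. M2 against M0 gave 0.42 (adjusted p = 0.34), and -0.0016 without M0 replicate 1. Its other probe sets gave 1.2 and 1.19 for M1 against M0, -1.3 and -1.26 for nutlin-3a, and -1.12 and -1.19 for 10058F4.

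Ccnd2 encodes cyclin D2, which many leukocytes use. In the M1 arrays it read 10.07, 9.08 and 10.06. The other groups stayed low, with 4.75, 4.82 and 5.07 in M0 and 4.99, 4.9 and 4.93 in M2. Nutlin-3a arrays gave 4.45, 4.99 and 5.26, and 10058F4 arrays 4.9, 5.2 and 5.21. No M1 array came near another group, and the 4 other groups overlapped with each other. The filter level, the 40th percentile of an array, lay between 4.34 and 4.52, so the low groups were close to it and the size of the rise is not exact.

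Ccnd2 was 29-fold higher in M1 than in M0 (log2 difference 4.86, SE 0.24, adjusted p = 2.2e-10) and 27.9-fold higher than in M2 (4.8, SE 0.24, adjusted p = 2.4e-10). Its 7 probe sets included 6 that passed the filter, and these rose by 3.64 to 5.12 in M1 against M0. Of them, 1416123_at and 1448229_s_at were above the filter on 3 arrays and 1430127_a_at on 4. These passed only through their M1 arrays, so their rise is not separate support. The probe set that did not pass, 1416124_at, differed by 0.99. The remaining comparisons gave 0.059 for M2 against M0 (95% interval -0.45 to 0.56), -0.04 with nutlin-3a (-0.55 to 0.47), 0.16 with 10058F4 (-0.34 to 0.67) and -0.2 between the agents (-0.71 to 0.3). None of these 4 passed the threshold, and their signs changed between probe sets.

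Ccnd3 encodes cyclin D3, the third partner of CDK4 and CDK6. The probe set used, 1415907_at, read 7.22, 7.3 and 7.26 in M0 and 8.61, 8.36 and 8.69 in M1. It read 7.02, 7.06 and 7.1 in M2. For nutlin-3a the values were 7.14, 7.46 and 7.29, and for 10058F4 7.42, 7.48 and 7.38. M1 arrays lay above all others, and M2 arrays lay below every array of the other groups. Ccnd3 was 2.44-fold higher in M1 than in M0 (log2 difference 1.29, SE 0.09, adjusted p = 1.2e-08) and 2.81-fold higher than in M2 (1.49, SE 0.09, adjusted p = 2.3e-09). With 10058F4 it rose by 0.37 (SE 0.09, adjusted p = 0.0099). With nutlin-3a the difference was 0.24 (SE 0.09, adjusted p = 0.095), without overlap of the arrays, and the difference between the agents was -0.13 (95% interval -0.32 to 0.065). M2 against M0 gave -0.2 (adjusted p = 0.11).

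The other probe sets of Ccnd3 did not follow this pattern. Probe set 1438805_at averaged 3.64 in M0, 3.85 in M1 and 3.99 in M2, under the filter level, and 5.23 with nutlin-3a and 5.56 with 10058F4. In a fit of all 24488 probe sets that passed the filter it rose with nutlin-3a by 1.24 (SE 0.12, adjusted p = 1.7e-05) and with 10058F4 by 1.57 (SE 0.12, adjusted p = 8.2e-07). Because it was above the filter on 6 of the 15 arrays, these sizes are not exact. Its M1 against M0 difference was 0.21 (adjusted p = 0.14). Probe set 1444323_at went the opposite way with the agents: it fell by 0.33 with nutlin-3a (SE 0.085, adjusted p = 0.02) and by 0.27 with 10058F4 (SE 0.085, adjusted p = 0.035). That probe set rose in M1 against M0 by 0.55 (adjusted p = 4.3e-05) and in M2 against M0 by 0.41 (adjusted p = 0.0023). With the mean of its probe sets, Ccnd3 rose by 0.68 in M1 against M0 and by 0.5 against M2. A rise of Ccnd3 in M1 against M0 was thus seen with 2 of its 3 probe sets. Against M2 it was seen with 1 of 3, since 1438805_at gave -0.14 (adjusted p = 0.35) and 1444323_at 0.14 (adjusted p = 0.15). The response to the agents differed between all 3. The sources used here do not say which transcript each probe set reads.

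**Figure D2:**
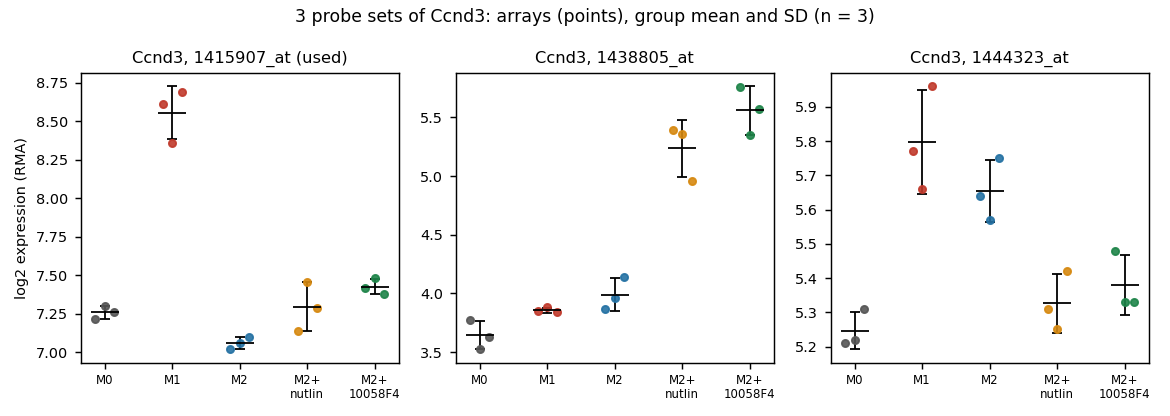
Log2 expression level (y axes differ) of the 3 probe sets of Ccnd3 in the 5 groups (x axis), with arrays as points and bars for mean and SD (n = 3). The probe set used, 1415907_at, is highest in M1, 1438805_at is highest with the agents (means 5.23 and 5.56), and 1444323_at is lower with the agents than in M2 (5.33 and 5.38 against 5.65).

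Cdk6 encodes a kinase that D cyclins activate. Its levels were 7.59, 8.47 and 8.47 in M0, 8.17, 8.64 and 8.27 in M1 and 7.56, 7.94 and 7.76 in M2. With nutlin-3a they were 7.59, 7.7 and 7.63, and with 10058F4 8.45, 8.29 and 8.29. M0 replicate 1 stood apart from the other M0 arrays at the level of M2. Every array of M1 and of 10058F4 lay above every array of M2 and of nutlin-3a.

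Cdk6 was 1.52-fold higher in M1 than in M2 (log2 difference 0.61, SE 0.19, adjusted p = 0.013), a call lost without M1 replicate 2 (0.47, adjusted p = 0.06) or M2 replicate 1 (0.51, adjusted p = 0.057). With 10058F4 it rose 1.51-fold over M2 (0.59, SE 0.19, adjusted p = 0.043). That call was lost when low genes were kept (adjusted p = 0.051), with trended, robust eBayes (0.053) and without M2 replicate 1 (0.16), M2 replicate 3 (0.098) or any of the M2+10058F4 arrays (0.083 to 0.13). Nutlin-3a cells had 1.63-fold less than 10058F4 cells (-0.71, SE 0.19, adjusted p = 0.043), and this call was lost when any of the 6 arrays was left out (adjusted p 0.093 to 0.15) and with trended, robust eBayes (0.052). Its 2 other probe sets gave 0.58 (adjusted p = 0.033) and 0.2 (adjusted p = 0.3) for 10058F4 against M2. M1 against M0 differed by 0.18 (95% interval -0.23 to 0.6). That difference was -0.11 without M0 replicate 1 and 0.51 with arrays centred on the tested genes (adjusted p = 0.021). M2 against M0 gave -0.42 (adjusted p = 0.12), and -0.72 (adjusted p = 0.0013) without M0 replicate 1.

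Cdk4, the other kinase of D cyclins, was measured as part of a list of G1/S partner genes. It averaged 8.77 in M0, 7.49 in M1 and 8.9 in M2 cells, and 8.68 under 10058F4 and 8.77 under nutlin-3a. Cdk4 fell in M1 by 1.28 against M0 (SE 0.1, adjusted p = 4.3e-08) and by 1.41 against M2 (SE 0.1, adjusted p = 1.6e-08). The probe sets used for the D cyclins were called higher in both comparisons, with the limits given above for Ccnd1 and Ccnd3. Cdk4 did not pass the threshold in the other 4 comparisons, with differences of 0.12, -0.13, -0.22 and 0.094.

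Ccne1 encodes cyclin E1, which activates CDK2 at the end of G1. It read 6.25, 6.65 and 6.74 in M0, 7.05, 8.05 and 7.09 in M1 and 6.77, 6.83 and 6.66 in M2. With nutlin-3a it read 6.41, 6.53 and 6.62, and with 10058F4 6.9, 6.94 and 6.74. All M1 arrays lay above the other groups, and M1 replicate 2 stood about 1 log2 unit above the other M1 arrays. Ccne1 rose in M1 by 0.85 against M0 (SE 0.21, adjusted p = 0.002) and by 0.64 against M2 (SE 0.21, adjusted p = 0.014). Without M1 replicate 2 these differences were 0.53 (adjusted p = 0.0017) and 0.32 (adjusted p = 0.035), and with the 6 arrays of M1 and M2 alone the second had an adjusted p of 0.056. M2 against M0 (0.21, adjusted p = 0.48), nutlin-3a (-0.24, adjusted p = 0.49) and 10058F4 (0.11, adjusted p = 0.78) did not pass the threshold, nor did the difference between the agents (-0.34, 95% interval -0.78 to 0.1).

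Ccne2 encodes cyclin E2, the other cyclin of CDK2. It read 5.01, 7.46 and 6.8 in M0, and 4.1, 5.28 and 4.49 in M1. The M2 arrays read 5.55, 6.22 and 5.26, those with nutlin-3a 4.43, 4.52 and 4.59, and those with 10058F4 5.76, 5.83 and 5.62. The M0 group spread over more than 2 log2 units, with replicate 1 below all M2 arrays. The nutlin-3a arrays lay below every M2 and 10058F4 array. Ccne2 was above the filter level on 13 of the 15 arrays. The M1 arrays at 4.1 and 4.49 lay under it, at filter levels of 4.52 and 4.5. The nutlin-3a arrays lay close to their filter levels of 4.37 to 4.4. The sizes of differences from these 2 groups are therefore not exact.

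Ccne2 was 3.48-fold lower in M1 than in M0 (log2 difference -1.8, SE 0.47, adjusted p = 0.0032), with overlapping arrays, and the difference was -2.51 without M0 replicate 1. It thus moved opposite to Ccne1 in this comparison. Against M2 the difference was -1.05 (SE 0.47, adjusted p = 0.061), which passed the threshold without M1 replicate 2 (-1.38, adjusted p = 0.026). M2 against M0 gave -0.75 (adjusted p = 0.25), and -1.45 (adjusted p = 0.004) without M0 replicate 1. With nutlin-3a the difference from M2 was -1.16 (SE 0.47, adjusted p = 0.11), without overlap. Blocking on the replicate number gave an adjusted p of 0.048, and the 6 arrays of the comparison alone 0.009. The difference between nutlin-3a and 10058F4 was -1.22 (SE 0.47, adjusted p = 0.15), without overlap, and with their 6 arrays alone the adjusted p was 9e-05. That SE is pooled over the 5 groups. It takes in the M0 spread (SD 1.26), beside SDs of 0.082 with nutlin-3a and 0.11 with 10058F4. The difference between 10058F4 and M2 was 0.063 with an interval from -0.94 to 1.06.

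Cdk2 encodes the kinase of E cyclins. Its levels were 7.72, 8.04 and 7.97 in M0, 7.29, 7.47 and 7.41 in M1, and 7.58, 7.64 and 7.66 in M2. With nutlin-3a they were 7.48, 7.4 and 7.4, and with 10058F4 7.65, 7.63 and 7.56. M0 arrays lay above all others, and the M1 and nutlin-3a arrays overlapped at the bottom. Cdk2 was 1.43-fold lower in M1 than in M0 (log2 difference -0.52, SE 0.079, adjusted p = 4.3e-05) and kept that call in every alternative tried, with -0.19 (adjusted p = 0.019) as the smallest, from the mean of its probe sets. Its other probe set, 1447617_at, was above the filter level on 0 arrays, so that mean takes in a reading under that level. M2 cells had 1.21-fold less than M0 (-0.28, SE 0.079, adjusted p = 0.015). That call was lost without M0 replicate 2 (adjusted p = 0.078) or 3 (0.057), without M2 replicate 1 (0.058), with repeated quantile normalization (0.08), with arrays centred on the tested genes (0.06), with the mean of its probe sets (0.079) and with 6 arrays alone (0.05). In M1 against M2, Cdk2 was lower by the deposited values (-0.24, SE 0.079, adjusted p = 0.017), but the difference was -0.033 (adjusted p = 0.73) after repeated quantile normalization and 0.0041 (adjusted p = 0.96) with arrays centred on the tested genes. The M1 against M2 call was also lost with the mean of its probe sets (adjusted p = 0.52), without M1 replicate 1 (0.072) and without M2 replicate 3 (0.053). With nutlin-3a the difference from M2 was -0.2 (adjusted p = 0.1), without overlap, and it passed the threshold with repeated quantile normalization (-0.25, adjusted p = 0.048) and with arrays centred on the tested genes (-0.27, adjusted p = 0.029). With 10058F4 the difference was -0.018 (95% interval -0.19 to 0.15).

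Cdkn1b encodes the CIP/KIP inhibitor that binds cyclin E with CDK2. It read 9.2, 9.09 and 9.11 in M0, 8.66, 9.37 and 8.89 in M1 and 8.76, 8.77 and 8.52 in M2. It read 9.02, 9.01 and 8.89 with nutlin-3a and 9.5, 9.43 and 9.55 with 10058F4. Every 10058F4 array lay above every other array, and the M2 arrays lay below those of M0 and of both agents. M1 replicate 2 stood above the other M1 arrays.

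Cdkn1b was 1.76-fold higher with 10058F4 than in M2 (log2 difference 0.81, SE 0.13, adjusted p = 6e-04), and this call held in every alternative applied to that probe set. Its other probe set gave 0.15 (adjusted p = 0.54), and the mean of both gave 0.48 (adjusted p = 0.018). Nutlin-3a gave 0.29 over M2 (SE 0.13, adjusted p = 0.16), without overlap. Cells with nutlin-3a had less Cdkn1b than those with 10058F4 (-0.52, SE 0.13, adjusted p = 0.032), a call lost when any of the 6 arrays was left out (adjusted p 0.066 to 0.12) and with the mean of the probe sets (0.15). In M2 against M0, Cdkn1b fell by 0.45 (SE 0.13, adjusted p = 0.02), a call lost without M0 replicate 1 (adjusted p = 0.063), without M2 replicate 3 (0.083) and with the mean of the probe sets (0.17). M1 against M0 gave -0.16 (95% interval -0.45 to 0.13), which was -0.36 (adjusted p = 0.0028) without M1 replicate 2 and 0.17 with arrays centred on the tested genes. M1 against M2 gave 0.29 (adjusted p = 0.069), and 0.094 (adjusted p = 0.37) without M1 replicate 2. It passed the threshold without M1 replicate 1 (0.45, adjusted p = 0.0056), with repeated quantile normalization (0.41, adjusted p = 0.013) and with arrays centred on the median of all probe sets of genes (0.33, adjusted p = 0.042) or of the tested genes (0.53, adjusted p = 0.0019).

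Cdkn2c encodes an INK4 inhibitor of CDK4 and CDK6. Its levels were 9.08, 9.8 and 9.43 in M0 and 7.09, 6.75 and 6.62 in M1. The M2 arrays read 9, 9.21 and 8.99, the nutlin-3a arrays 8.44, 8.81 and 8.5, and the 10058F4 arrays 8.9, 9.27 and 8.94. M1 arrays lay far below all others, and nutlin-3a arrays lay between M1 and the rest. Cdkn2c was 6.13-fold lower in M1 than in M0 (log2 difference -2.62, SE 0.17, adjusted p = 5.4e-09) and 4.74-fold lower than in M2 (-2.25, SE 0.17, adjusted p = 2.9e-08). With nutlin-3a the difference from M2 was -0.49 (SE 0.17, adjusted p = 0.071), and it passed the threshold when blocked on the replicate number (adjusted p = 0.033), with repeated quantile normalization (0.042) and with arrays centred on the tested genes (0.035). With 10058F4 it was -0.032 (95% interval -0.4 to 0.33). M2 against M0 gave -0.37 (adjusted p = 0.12), and -0.55 (adjusted p = 0.026) without M0 replicate 1.

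Cdkn2d encodes another INK4 inhibitor with the same targets. It read 8.27, 8.82 and 8.48 in M0, 9.22, 9.64 and 9.64 in M1 and 8.21, 8.41 and 8.25 in M2. It read 8.03, 8.24 and 8.16 with nutlin-3a and 8.47, 8.53 and 8.39 with 10058F4. M1 arrays lay above all others, opposite to Cdkn2c. Cdkn2d was 1.97-fold higher in M1 than in M0 (log2 difference 0.98, SE 0.13, adjusted p = 1.5e-05) and 2.31-fold higher than in M2 (1.21, SE 0.13, adjusted p = 1.7e-06), in every alternative tried. The differences of -0.23 for M2 against M0, -0.15 for nutlin-3a, 0.17 for 10058F4 and -0.32 between the agents did not pass the threshold (adjusted p 0.2 to 0.51).

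**Figure D3:**
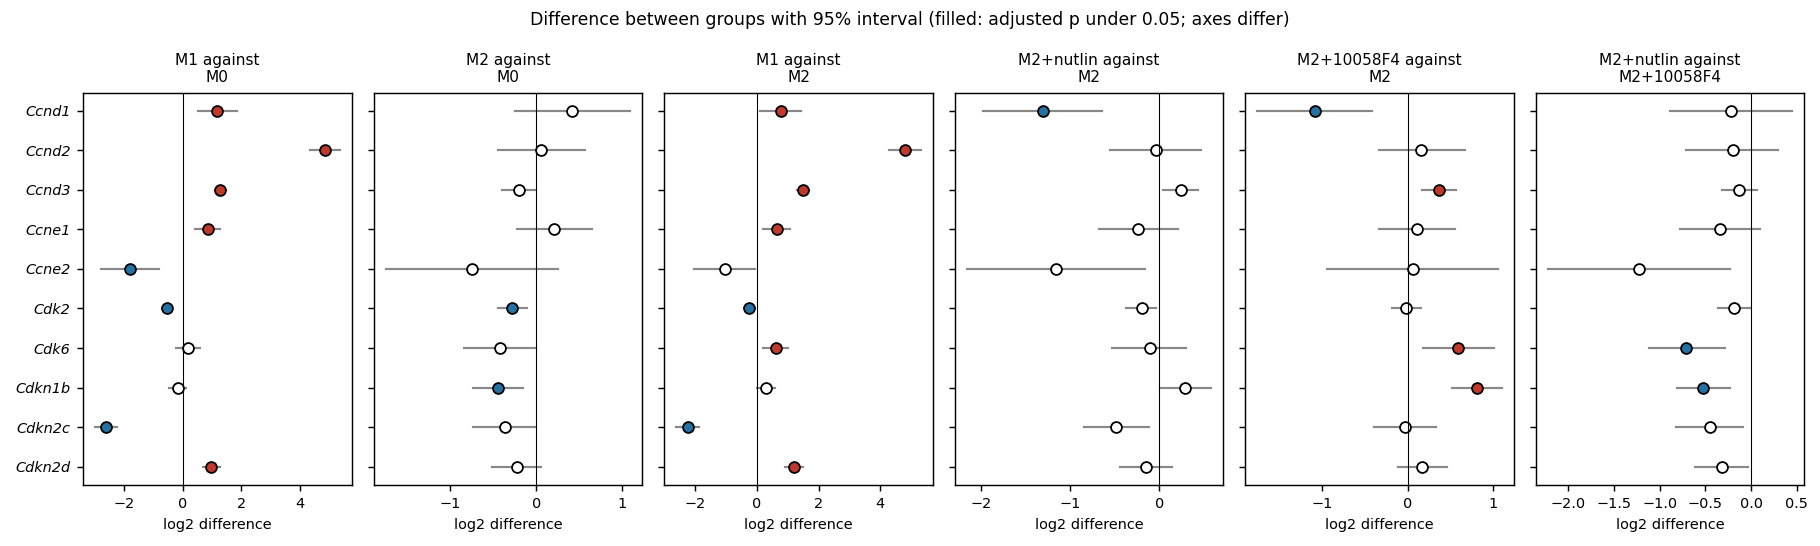
Log2 difference between groups (x axis; scales differ between panels) for each G1 gene (y axis) with its 95% interval, for 6 comparisons named as the first group against the second. Filled points passed the adjusted p threshold of 0.05, red where higher and blue where lower. Ccnd2 reaches 4.86 in M1 against M0, Cdkn2c reaches -2.62, and Ccnd1 is filled and below 0 with both agents.

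A list of 26 G1/S partner genes (other kinases and inhibitors, the CDK-activating kinase, the retinoblastoma and E2F families and subunits of ubiquitin ligases) had 25 tested members, with Cdkn2a not tested. In M1 against M0, 5 of these rose and 18 fell, with a median of -0.57, where 33.6% of all tested genes were called higher and 39.1% lower. The kinase subunit Cks1b (-2.55, SE 0.23), the E2F partner Tfdp2 (-2.94, SE 0.17) and the repressor E2f7 (-2.5, SE 0.4) had the largest falls, and E2f7 and Tfdp2 ended under the filter level, at 3.25 and 4. Cdkn1a, a CIP/KIP inhibitor and p53 target, rose by 2.27 (SE 0.065, adjusted p = 1.2e-12). In M1 against M2, 3 rose and 13 fell, with a median of -0.22, beside 28.1% and 36.5% of all genes. There the retinoblastoma relative Rbl1 rose by 2.24 (SE 0.13) and Cks1b and Tfdp2 were at -2.61 and -2.52.

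In M2 against M0, 1 partner gene rose, Cdkn1a (1.35, SE 0.065, adjusted p = 2.7e-09), and 5 fell, among them E2f8 (-0.75) and Rb1 (-0.67). Over all tested genes 12.7% were called higher and 18.4% lower, so 5 lower calls among 25 genes are near that share. Without M0 replicate 1, 2 partner genes rose and 7 fell, with a median of -0.15. With nutlin-3a, 6 rose and 3 fell, beside 9.56% and 5.85% of all genes. Cdkn1a rose by 1.7 (SE 0.065, adjusted p = 1.1e-09) and the repressors E2f7 and E2f8 were at -1.31 and -1.18, with E2f7 under the filter level at 3.56, while Mdm2, a p53 target read as a check of the agent, rose by 1.99 (SE 0.091, adjusted p = 7.7e-09). With 10058F4, 2 rose and 2 fell, which is near the shares of 10.6% and 10.2% of all genes. Cdkn1a fell by 0.75 (SE 0.065, adjusted p = 2.2e-06), opposite to Cdkn1b, the INK4 inhibitor Cdkn2b rose by 0.74 (adjusted p = 0.042) and E2f5 rose by 0.62 (SE 0.1, adjusted p = 0.00069). Myc itself differed by 0.00045 with 10058F4 (SE 0.15) and by -0.96 with nutlin-3a (SE 0.15, adjusted p = 0.00079). Between the agents Cdkn1a was 2.45 higher with nutlin-3a (SE 0.065), and 3 partner genes were higher and 3 lower, beside 4.24% and 2.72% of all genes. The medians in these 4 comparisons lay between -0.061 and 0.036.

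The levels of the G1 genes can be set beside a list of 24 S phase and mitosis genes, all tested, as a reading of proliferation. In M1 against M0 all 24 fell (median -2.83), among them the ribonucleotide reductase subunit Rrm2 (-5.6), the ubiquitin-conjugating enzyme Ube2c (-4.25) and the mitotic cyclin Ccnb2 (-3.98). These averaged 3.09, 4.18 and 4.03 in M1, all under the filter level, so the sizes are not exact. In M1 against M2, 23 fell (median -2.57). Over all tested genes, 39.1% were called lower in M1 against M0 and 36.5% in M1 against M2. In M2 against M0, 3 of 24 fell (median -0.19), no larger a share than the 18.4% of all genes called lower. These included the replication licensing factors Cdc6 (-1.51) and Cdt1 (-0.7). Without M0 replicate 1 the count was 11 with a median of -0.49. With nutlin-3a, 15 of 24 fell (median -1.02), with the cyclin Ccna2 at -2.07, beside 5.85% of all genes. With trended, robust eBayes the count was 11. The genes Mcm2 to Mcm7, Pcna, Cdt1 and Mki67 (-0.16, adjusted p = 0.72) were not called with nutlin-3a. Between the agents 9 were lower with nutlin-3a (median -0.76), or 7 with trended, robust eBayes, beside 2.72% of all genes. With 10058F4, limma called 0 of 24 either way (1 higher and 0 lower at an unadjusted p under 0.05, and 0 with trended, robust eBayes), with a median of -0.1. Over all genes 20.9% were called either way there. Where the list fell with nutlin-3a, Ccnd1 fell too, and where it did not with 10058F4, Ccnd1 fell as well. In M1 against M0 the list fell while all D cyclins rose by the probe sets used. Against M2 the list fell too. There the other probe sets of Ccnd3 gave -0.14 and 0.14, and the Ccnd1 call was lost in several alternatives.

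By array, the median of the S phase and mitosis list relative to each gene's mean was 0.15, 1.48 and 0.96 in M0, and -1.74, -2.08 and -1.9 in M1. It was 0.53, 0.92 and 0.57 in M2. Nutlin-3a gave -0.36, -0.015 and -0.34, and 10058F4 gave 0.36, 0.74 and 0.37. M0 replicate 1 was the lowest M0 array for this list and for each G1 gene other than Cdkn1b, which was highest there. Values without M0 replicate 1 are given for the differences of G1 genes whose call or sign changed without it, and for some others.

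**Figure D4:**
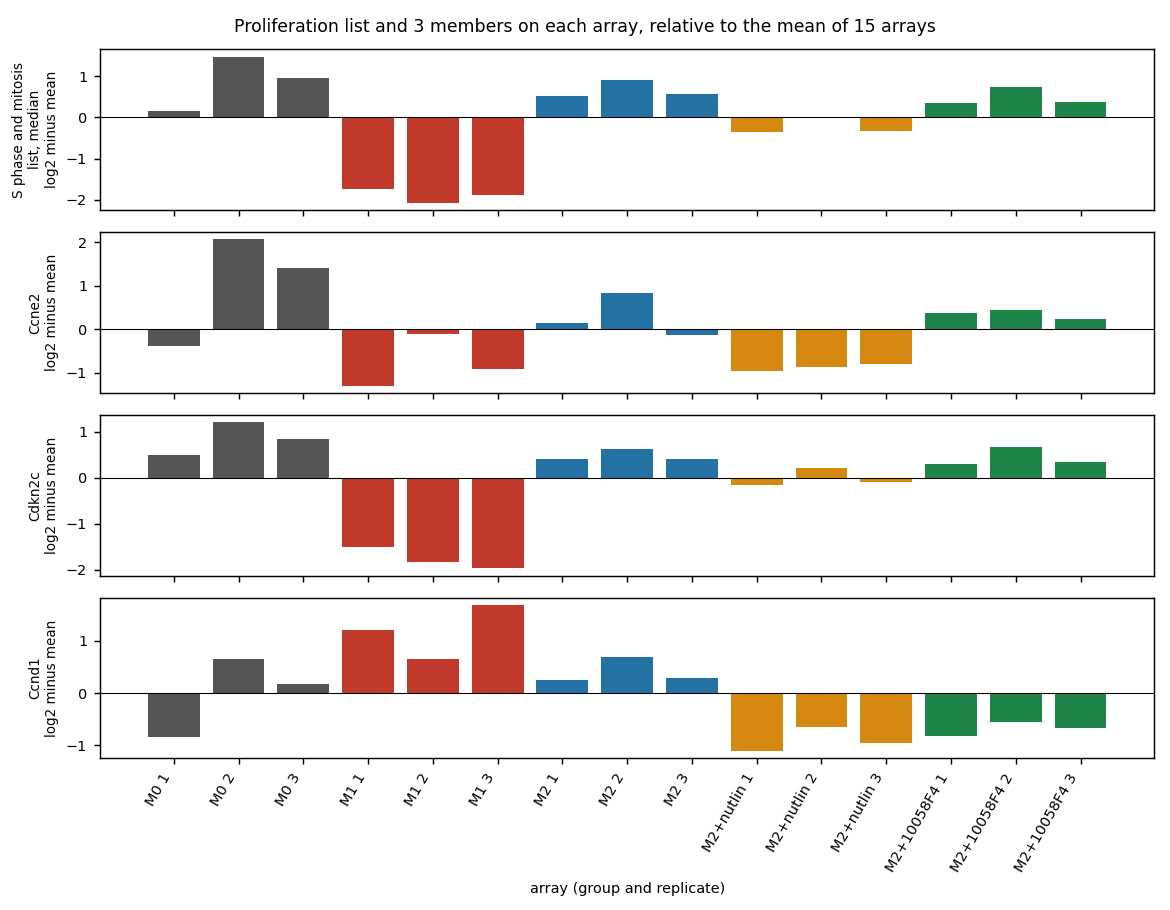
Each array's value minus the mean of 15 arrays (y axis, log2) for the median of the S phase and mitosis list (top) and for Ccne2, Cdkn2c and Ccnd1, with arrays along the x axis by group and replicate. In M1 the list, Ccne2 and Cdkn2c lie below 0 and Ccnd1 above it; with the agents Ccnd1 lies below 0 on all 6 arrays, while the list lies above 0 with 10058F4.

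The pattern of 6 of the G1 genes, those whose group means spanned at least 1 log2 unit, was matched to other tested genes by the root mean square difference of centred log2 values over 15 arrays. The closest to Ccnd2 was Mir155hg, the host gene of miR-155, at 0.177, followed by Fam3b at 0.245 and Hspa1a at 0.305. Mir155hg and Fam3b averaged 8.11 and 7.6 in M1 but 3.02 to 3.22 in the other groups, under the filter level. Their likeness to Ccnd2 thus shows a high level in M1 and little about the other groups. The closest to Cdkn2c was the replicative helicase subunit Mcm3 at 0.209, followed by Haus4 at 0.211 and Cip2a at 0.218. Ccne2 was matched by Dtl at 0.336, Melk at 0.338 and Tcf19 at 0.36. Ccnd3 was matched by Ascc3 at 0.102, Agfg1 at 0.123 and Etnk1 at 0.128, and Cdkn2d by Tpm4 at 0.143, Casp8 at 0.155 and Gramd1b at 0.16. The matches of Ccnd1 were looser, with Tubb4b at 0.38, Timeless at 0.389 and Dok2 at 0.435. These distances grow with a gene's own spread, which was 2 (SD over 15 arrays) for Ccnd2 and 0.516 for Cdkn2d, so they rank matches within a gene only.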

How the data were processed

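Total RNA from 15 macrophage samples was read on single-colour arrays with biotin-labelled cRNA, per the labels' protocols. What the authors deposited is a log2 level for every probe set, summarised by RMA according to the submitters' processing notes. The sources used here give no RMA version, and the log base was read from the range of the values. RMA brings arrays towards one distribution, so a shift of most genes one way would be hidden. Sample titles gave the group and the replicate number.

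Of 45101 probe sets, 64 were controls, 34945 named 1 gene in the platform annotation, 932 several and 9160 none. Symbols were updated through the RefSeq table of GRCm38.p6, where 34741 gene IDs matched. Of 18193 genes, each read from its probe set with the highest mean, the 13703 that exceeded the 40th percentile of the array on 3 or more arrays were tested. The 10 genes have 25 probe sets, 23 of which passed that filter.

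All 6 comparisons were contrasts of 1 limma fit (lmFit, eBayes; 5 group means, 15 arrays, 10 residual and 3.86 prior degrees of freedom), with Benjamini-Hochberg adjustment over all tested genes and calls at an adjusted p under 0.05. Standard errors and 95% intervals come from that fit. The test was tried on simulated data. The members and lists were chosen with earlier results of these data known. From the lists, Cdk4, Cdkn1a and up to 3 called genes with the largest change per comparison were named, with Mdm2 as a check and Myc as the target of 10058F4; other genes named were chosen after their values were seen.

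Same-numbered arrays deviated together (r across genes 0.232 to 0.424 for M2 with M0, 0.337 to 0.381 for nutlin-3a with M2, 0.308 to 0.368 for 10058F4 with M2 and 0.341 to 0.408 between agents), all above the limit of 0.1, so the replicate block is given there where it changes a call. For M1 some pairs lay under it (0.055 to 0.263 with M0, 0.0635 to 0.148 with M2). Alternatives were other filters, probe set rules, scalings, samples, variance models, the block and each array left out; other probe sets, centring on the tested genes and lists without an array were added after seeing the data. R 4.3.3, limma 3.58.1, Python 3.11.15, pandas 2.3.3 and matplotlib 3.10.9 were used.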

Additional observations from a re-analysis of the deposited data

How the results depend on the processing

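Of 60 differences of the G1 genes, 25 were called. Of these, 15 kept their direction and call in all alternatives set out at the start and the other 10, with adjusted p-values of 0.013 to 0.043, lost the call in some without a change of direction there. Of the 35 that were not called, 10 kept direction and side throughout. The number of arrays limits the precision. Low signal limits Ccne2, most in M1 and with nutlin-3a, and it limits Ccnd2 outside M1. The cause was not tested for any change of call. The setting with specific probe sets alone gives no value for Cdk2. The probe set used is not of that kind, and the specific one, 1447617_at, did not pass the filter. Lower counts in that setting leave Cdk2 untested and do not show a changed call for it.

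For M2 against M0 the 2 calls became 1 with repeated quantile normalization, 1 with specific probe sets, 1 with arrays centred on the tested genes and 0 with the mean of all probe sets, and 1 to 4 with an array left out (4 without M0 replicate 1). For nutlin-3a against M2 the 1 call became 3 with quantile normalization, 3 with centring on the tested genes, 3 with the replicate block, 2 with the mean of probe sets and 5 with 6 arrays alone. The calls gained with 6 arrays alone were Ccne2, Cdk2, Cdkn1b and Cdkn2c. Between the agents 2 calls became 5 with 6 arrays alone (Ccne1, Ccne2 and Cdkn2d gained), 1 with trended, robust eBayes, 1 with the mean of probe sets and 0 with any array left out. With 10058F4, 4 calls became 2 to 3 with an array left out. Over all genes, nutlin-3a against M2 had 2112 calls (1243 to 1555 with an array left out), and the agents 954 (567 to 722, and 1483 with 6 arrays alone). The S phase and mitosis list in M2 against M0 had 3 calls, and 11 without M0 replicate 1. The replicate block changed no call of a G1 gene apart from Ccne2 and Cdkn2c with nutlin-3a and Ccne2 in M1 against M2 (-1.05, adjusted p = 0.025), where the numbers did not meet the limit for pairing.

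Among called results, Cdk2 in M1 against M2 changed sign with centring on the tested genes (0.0041), and Ccnd3 in M1 against M2 and with 10058F4 with other probe sets. The other changes of sign were of differences that were not called. For Ccnd2 the mean of all probe sets gave -0.022 in M2 against M0, 0.032 with nutlin-3a, -0.085 with 10058F4 and 0.12 between the agents, and its other probe sets gave -0.034, -0.26 and -0.073, then 0.099, 0.019, 0.074 and 0.2, then -0.23, -0.056 and -0.12, then 0.33, 0.075, 0.029 and 0.32. With an array left out, Ccnd2 ranged from -0.0042 to 0.15 in M2 against M0, -0.22 to 0.19 with nutlin-3a and -0.38 to 0.023 between the agents, and Ccnd1 from -0.0016 to 0.74 in M2 against M0. Ccnd3 in M2 against M0 was 0.18 with the mean of probe sets and 0.35 and 0.41 with its other ones, which also gave -0.14 in M1 against M2, -0.27 with 10058F4 and -0.33 with nutlin-3a, both called lower. Ccne1 in M2 against M0 was -0.016 with its other, specific probe set. Ccne2 with 10058F4 was -0.15 without M2 replicate 3, -0.00026 without replicate 1 and 0.33 without replicate 2, Cdk2 was 0.0018 with centred arrays and -0.04 to 0.0068 with an array left out, and Cdkn2c reached 0.017, 0.034 and 0.039 with an array left out. Cdk6 in M1 against M0 was -0.11 without M0 replicate 1. Cdkn1b in M1 against M0 was 0.0033 with quantile normalization, 0.17 with centring on the tested genes and 0.0034 with its other probe set, which gave -0.024 with nutlin-3a.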
